A study of Mus musculus with 12 samples.

Results

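The collagen genes of the mouse were followed through 12 RNA sequencing samples of medulloblastoma and cerebellum. Members were chosen by symbol, as every gene of the deposited expression table named Col, a number, a and a number, which gave 44 genes of 24091. They were grouped by textbook class into 11 fibrillar, 8 basement membrane and 25 other collagen genes. The samples formed 4 groups of 3 mice. Tumors came from Brca2-mut;Trp53-mut mice GB344, GB359 and GB370, and adjacent cerebellum from the same mice, so both groups carried both lesions. Control cerebella came at postnatal day 90 from Brca2-mut;Trp53-WT mice GB361, GB508 and GB512 and from Brca2-WT;Trp53-mut mice GB517, GB519 and GB520. In the study's methods, exons 3 and 4 of *Brca2* are removed by Cre under the human GFAP promoter, which acts in the central nervous system, and *Trp53* is lost in the whole body. Whether the Brca2-WT mice carried Cre, and the age at which each tumor was collected, is not given in the sources used here.

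Collagens are secreted or membrane-anchored proteins whose chains wind around each other in groups, either of like chains or of partner chains from different genes. Fibrillar collagens build the cables of connective tissue, and type IV collagen builds the sheet of the basement membrane on which endothelium rests. In the brain, collagen is known mainly from vessels, meninges and choroid plexus, since the tissue between neurons holds little of it. Other classes decorate fibrils (the FACIT collagens, such as type IX), span the cell membrane (types XIII, XVII, XXIII and XXV) or form beaded filaments (type VI) and hexagonal lattices (type VIII).

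Levels are TPM, a transcript abundance scaled for gene length and library total. It carries no read counts, so the depth behind a value is unknown. *Brca2* and *Trp53* TPM did not check the genotypes, because gene-level values include transcripts without the deleted exons. *Brca2* was at 3.396 to 3.79 TPM in Brca2-mut;Trp53-WT and 3.24 to 4.399 TPM in Brca2-WT;Trp53-mut cerebella, and *Trp53* at 33.1 to 37.2 and 47.1 to 49.4 TPM. Cerebellar markers matched the tissue in the controls, where 4 Purkinje cell markers summed to between 4023 and 6816 TPM, against 47.7 to 251 TPM in tumors. Proliferation and granule progenitor markers summed to 741 to 1508 TPM in tumors, 52.0 to 400 TPM in adjacent cerebella and 22.0 to 34.6 TPM in controls, so their sum was above every control in each adjacent cerebellum. In that of GB370, *Mki67* and *Top2a*, at 2.72 and 5.53 TPM, were below control GB512, at 5.63 and 8.42 TPM. Of 7 microglia and macrophage markers, 3 were called higher in tumors, with sums of 214 to 323 TPM against 83.2 to 160 TPM in controls, and all 5 oligodendrocyte markers and 5 of 6 astrocyte markers were called lower. Among all 16241 tested genes, 14.4% were called higher and 21.5% lower in tumors, by the test defined below. Choroid plexus markers differed between the control genotypes, with 31.2 to 895 TPM in Brca2-mut;Trp53-WT and 4006 to 5236 TPM in Brca2-WT;Trp53-mut cerebella. In bulk tissue, fewer cells of a type and less RNA per cell cannot be told apart.

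Collagen transcripts took a larger part of the total TPM in tumors. Summed over the 44 genes, they had 748, 468 and 561 TPM in the tumors of GB344, GB359 and GB370, 406, 357 and 351 TPM in the adjacent cerebella of the same mice, and 274.6 to 335.5 TPM in the 6 controls. All 3 tumors were above all adjacent and control samples. *Col18a1*, the precursor of endostatin, led the list in every control, with 58.3 to 82.7 TPM, or 19.4% to 28.0% of collagen TPM. In the tumors *Col9a3* led, with 16.3% to 41.4% of collagen TPM, and *Col4a1* came next. The basement membrane class summed to 205, 118 and 163 TPM in the tumors against 81.7 to 108 TPM in controls. The fibrillar class summed to 198, 77.5 and 123 TPM against 72.6 to 86.6 TPM, so that tumor GB359 lay within the control range. Between 30 and 34 members reached 1 TPM in a sample, and no member was listed at 0 in any.

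**Figure D1:**
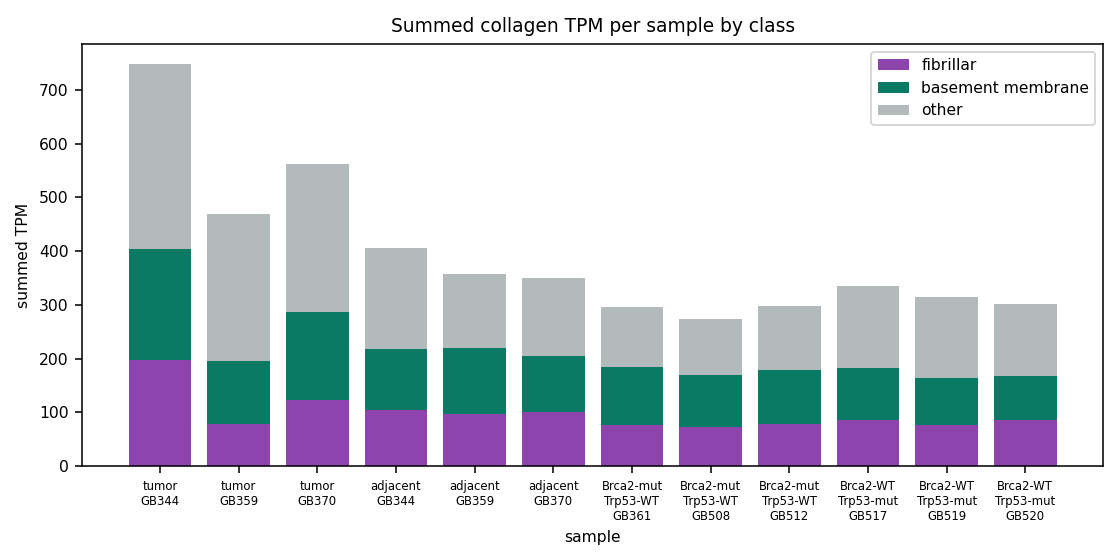
Bars give the summed TPM of all collagen genes in each of the 12 samples, divided into fibrillar, basement membrane and other classes. Tumors reach 468 to 748 TPM and controls 274.6 to 335.5 TPM, and tumor GB344 has the tallest fibrillar and basement membrane parts.

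**Figure D2:**
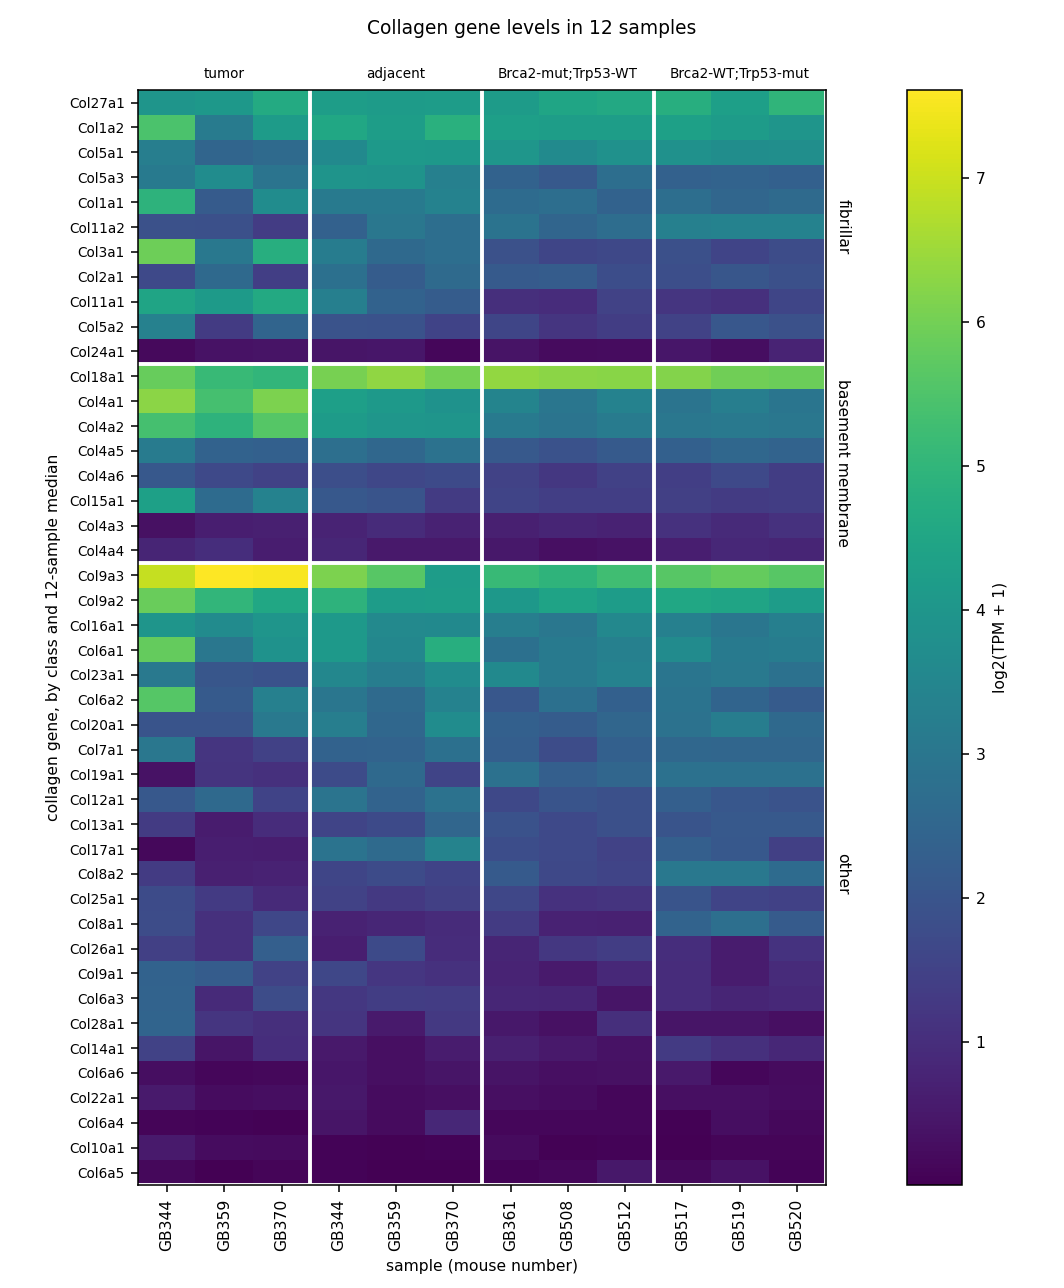
Each row is a collagen gene, ordered within its class by the median over 12 samples, each column a sample, and the color its level as log2(TPM + 1). *Col4a1*, *Col4a2*, *Col11a1*, *Col3a1* and *Col9a3* are brighter in the 3 tumor columns than in the 6 control columns.

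Tumors were compared with the 6 control cerebella to ask which collagens differ in the tumor. No control carried both lesions, so tumor and double-mutant genotype cannot be told apart in this comparison. Differences are of mean log2(TPM + 1), tested with limma over all expressed genes, and a gene was called at a Benjamini-Hochberg adjusted p under 0.01 with a difference of at least 1. Of the 44 genes, 35 passed the expression filter, and 8 were called higher and 5 lower. Calls over all 16241 tested genes were 14.4% higher and 21.5% lower. The median difference was 0.31 over the tested collagen genes and -0.11 over all genes. By class, 3 of 6 tested basement membrane genes were called higher and 0 lower (median 1.21), 2 of 10 fibrillar genes higher and 2 lower (median 0.41), and 3 of 19 other genes higher and 3 lower (median 0.11). These counts moved with single tumors: without GB344, 7 were called higher and 8 lower, and without GB359, 11 higher and 3 lower.

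*Col4a1* and *Col4a2*, whose chains form the common type IV trimer of vessel basement membranes, both rose. *Col4a1* (Entrez Gene 12826, chr8:11198423-11312889, GRCm38) had 76.9, 40.7 and 67.4 TPM in the tumors of GB344, GB359 and GB370, 18.6, 16.0 and 13.9 TPM in adjacent cerebella, and 6.61, 7.79 and 9.83 TPM as the lowest, median and highest control. The order tumor, adjacent, control held without overlap. The tumor mean was 61.6 ± 18.8 TPM (SD, n = 3) and the control mean 8.05 ± 1.41 TPM (SD, n = 6), a log2 difference of 2.76 (SE 0.20, limma adjusted p = 6.7e-07). *Col4a2* (Entrez Gene 12827, chr8:11312805-11449287) had 40.1, 29.5 and 47.8 TPM in tumors, 17.3, 14.9 and 14.6 TPM in adjacent cerebella and 6.56, 7.27 and 7.96 TPM in controls. Its groups also did not overlap, and the log2 difference was 2.25 (SE 0.14, limma adjusted p = 2.19e-07). Leaving out each sample in turn gave differences of 2.58 to 3.03 for *Col4a1* and 2.10 to 2.44 for *Col4a2*.

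These genes lie head to head. From the start of *Col4a2* to the start of *Col4a1* used in the RefSeq GRCm38.p6 promoter table is a stretch of 22 bases that both genes span, at chr8:11312805-11312826, and the outermost annotated end of *Col4a1* given above reaches further into *Col4a2*. The shared stretch is shown because both genes of the pair rose together, with the letters GGGCGG of a GC box in capitals, on the plus strand.

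Col4a2 and Col4a1 start: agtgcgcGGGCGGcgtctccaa

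Neighbors in the genome did not always move together. *Col4a6* and *Col4a5*, which are head to head on the X chromosome and 1274 bases apart, had log2 differences of 0.31 and 0.39 and were not called (limma adjusted p = 0.0931 and 0.121). *Col4a5* ranged from 4.07 to 8.08 TPM in the tumors and 2.77 to 4.82 TPM in controls. *Col4a3* and *Col4a4*, partners in the specialized type IV network of kidney and ear, stayed at or below 1.15 TPM in every sample and were not tested. *Col9a1* and *Col19a1* lie 4944 bases apart on chromosome 1 and were called in opposite directions.

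The multiplexins *Col15a1* and *Col18a1*, basement membrane proteoglycans with a releasable C-terminal domain, differed in opposite directions. *Col15a1* (Entrez Gene 12819) had 18.96, 5.35 and 9.46 TPM in tumors, 3.27, 2.95 and 1.499 TPM in adjacent cerebella and 1.497, 1.65 and 1.96 TPM as the lowest, median and highest control. Every tumor was above every control, by 2.04 on the log2 scale (SE 0.28, limma adjusted p = 8.44e-05). *Col18a1* had 56.9, 34.1 and 31.0 TPM in tumors, 64.8, 80.7 and 63.2 TPM in adjacent cerebella, and 58.3, 74.3 and 82.7 TPM in controls. It was below every control in every tumor, but its log2 difference of -0.84 (SE 0.18, limma adjusted p = 0.00213) did not reach the fold minimum.

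Vessel cell markers differed among themselves, where 14.4% of all tested genes were called higher and 21.5% lower in tumors. Of 8 endothelial markers, 0 were called higher and 3 lower in tumors, and their summed level was 123 to 209 TPM in tumors, 202 to 263 TPM in adjacent cerebella and 218 to 256 TPM in controls. Of 9 mural cell markers, 2 were called higher and 2 lower, with sums of 124 to 268 TPM in the tumors and 178 to 199 TPM in controls. Every tumor was above every control for the endothelial markers *Cldn5* (57.5, 60.9 and 84.3 TPM against at most 50.5 TPM), *Cdh5* (11.7, 10.5 and 23.3 TPM against at most 10.1 TPM) and *Kdr* (8.15, 7.57 and 11.7 TPM against at most 6.73 TPM), none of them called, and for the mural markers *Cspg4* (11.05, 13.8 and 20.8 TPM against at most 6.34 TPM) and *Kcnj8* (7.62, 13.5 and 55.4 TPM against at most 5.13 TPM), both called. Every tumor was below every control for 4 endothelial markers. These were *Flt1* (at most 12.5 TPM against at least 24.6 TPM), *Tek* (4.92 against 6.31 TPM), *Slco1a4* (12.9 against 24.9 TPM) and *Ly6c1* (45.1 against 81.3 TPM). The same held for the mural markers *Vtn* (at most 57.4 TPM against at least 95.9 TPM) and *Myh11* (1.48 against 2.72 TPM). The share of all genes that separated tumors from controls without overlap was not counted. The part of vessel cells in the type IV collagen values was not tested.

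Among fibrillar genes, *Col11a1*, a minor chain that seeds thin fibrils, and *Col3a1* were the genes called higher. *Col11a1* (Entrez Gene 12814, chr3:114030479-114220756) had 20.8, 16.7 and 23.8 TPM in tumors, 8.74, 4.24 and 3.66 TPM in adjacent cerebella and 0.979, 1.198 and 2.02 TPM as the lowest, median and highest control. The 3 groups did not overlap. The log2 difference between tumors and controls was 3.18 (SE 0.18, limma adjusted p = 1.12e-07), and it stayed between 3.06 and 3.31 with each sample left out. *Col3a1* (Entrez Gene 12825, chr1:45311538-45349706), the chain of the reticular fibers around vessels, had 60.5, 7.37 and 26.5 TPM in tumors, 8.195, 5.04 and 5.75 TPM in adjacent cerebella and 1.99, 2.32 and 2.75 TPM in controls. Tumors spread over a wide range, all above the controls, and the log2 difference was 2.86 (SE 0.47, limma adjusted p = 0.000299). It was 2.19 without tumor GB344 and 3.63 without tumor GB359, so its order with *Col11a1*, at 3.16 and 3.31 in the same fits, rested on tumor GB359.

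Upstream sequences of these genes, and of *Col1a2*, whose level did not pass the test, are printed for comparison, from RefSeq GRCm38.p6, plus strand, each ending 1 base before the annotated gene. Capitals mark matches, on either strand, to 3 short promoter motifs. The motif of the TATA box was searched as TATAAA. The CCAAT box was searched under its own letters. The GC box was searched as GGGCGG. No marked matches overlap each other. *Col11a1* is chr3:114030290-114030478, *Col3a1* is chr1:45311288-45311537 and *Col1a2* is chr6:4505368-4505617.

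Col11a1: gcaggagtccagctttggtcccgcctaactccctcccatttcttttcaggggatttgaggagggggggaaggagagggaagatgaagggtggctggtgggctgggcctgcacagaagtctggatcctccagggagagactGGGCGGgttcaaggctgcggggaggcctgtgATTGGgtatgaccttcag

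Col3a1: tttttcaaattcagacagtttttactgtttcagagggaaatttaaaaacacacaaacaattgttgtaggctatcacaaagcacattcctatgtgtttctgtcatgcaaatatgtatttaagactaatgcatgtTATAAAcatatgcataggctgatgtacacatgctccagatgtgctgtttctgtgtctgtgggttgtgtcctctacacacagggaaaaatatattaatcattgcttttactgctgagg

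Col1a2: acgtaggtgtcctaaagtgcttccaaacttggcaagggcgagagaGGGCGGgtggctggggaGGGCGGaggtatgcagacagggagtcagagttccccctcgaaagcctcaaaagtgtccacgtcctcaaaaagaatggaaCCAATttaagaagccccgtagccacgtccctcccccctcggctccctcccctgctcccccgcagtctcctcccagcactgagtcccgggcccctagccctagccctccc

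Of the printed sequences, that of *Col3a1* alone held TATAAA, with its initial base 117 bases upstream of the start. Those of *Col11a1* and *Col1a2* each held a CCAAT and a GC box. The *Col11a1* sequence is cut at the annotated gene to 189 bases, against 250 for the other genes. Matches in the part of its window nearest the promoter-table start are therefore not shown. Promoters were listed for 35 of the 44 genes. Over the 250 bases upstream of the start, GGGCGG was in 21 of them (60%) and in 32.9% of all 27025 promoters, CCAAT in 12 (34.3% against 34.5%) and TATAAA in 5 (14.3% against 12.97%). A match is a run of letters in this window and says nothing of binding.

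Other fibrillar genes were lower or did not pass the test. *Col11a2*, a partner chain of *Col11a1*, had 2.71, 2.68 and 1.59 TPM in tumors, 4.17, 7.12 and 5.77 TPM in adjacent cerebella and 4.67, 7.71 and 9.51 TPM in controls, below every control in every tumor. Its log2 difference was -1.32 (SE 0.23, limma adjusted p = 0.000462), which fell short of the fold minimum with Brca2-mut;Trp53-WT cerebella alone as the control, at -0.99. *Col5a1*, the main type V chain, had 8.58, 4.61 and 5.18 TPM in tumors, 11.4, 16.4 and 15.7 TPM in adjacent cerebella and 11.6, 12.9 and 15.1 TPM in controls. Tumors were below all other samples, and the log2 difference was -1.02 (SE 0.17, limma adjusted p = 0.000284), which median-of-ratios scaling moved to -0.91, under the fold minimum. Its partner *Col5a2* spread from 1.52 to 9.12 TPM in the tumors and from 1.26 to 3.18 TPM in controls. *Col5a3*, the alternative type V chain, had 7.68, 12.1 and 6.62 TPM in the tumors and 3.39 to 5.74 TPM in controls, a log2 difference of 0.84 (limma adjusted p = 0.00227) that was not called. *Col27a1*, with the highest median of its class, had 14.7, 15.6 and 24.1 TPM in the tumors and 17.0 to 30.4 TPM in controls, and these overlapped.

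The chains of type I collagen, the main protein of connective tissue, varied more between tumors than between groups. *Col1a1* had 29.1, 3.53 and 11.9 TPM in the tumors of GB344, GB359 and GB370, 7.90, 7.57 and 9.46 TPM in adjacent cerebella and 4.29 to 5.78 TPM in controls, and *Col1a2* had 42.6, 8.03 and 17.0 TPM in tumors, 22.0, 17.9 and 27.3 TPM in adjacent cerebella and 14.6 to 19.2 TPM in controls. Tumor GB344 was above all controls for both, and tumor GB359 below all of them. The log2 differences were 0.97 (SE 0.45, limma adjusted p = 0.0733) and 0.06 (SE 0.37, limma adjusted p = 0.899). Type VI chains showed the same order of tumors, with *Col6a1* at 55.7, 7.11 and 13.6 TPM and *Col6a2* at 47.6, 3.45 and 8.94 TPM against 6.09 to 11.79 and 3.19 to 6.55 TPM in controls, and neither was called.

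Fibroblast markers stood beside these values, where 14.4% of all tested genes were called higher and 21.5% lower in tumors. Of 10 leptomeningeal or vascular fibroblast markers, 0 were called higher and 5 lower in tumors (median -1.49), and their sum was 42.6 to 279 TPM in the tumors and 151 to 219 TPM in controls. None was at 0 throughout a group. *Lum*, a fibroblast proteoglycan, had 23.8, 3.06 and 8.27 TPM in the tumors of GB344, GB359 and GB370 and 3.51 to 4.69 TPM in controls, and *Igf2* had 212, 12.3 and 29.8 TPM against 51.9 to 105 TPM. Others of the list were lowest in tumor GB344, with *Fmod* at 1.11, 2.40 and 2.89 TPM in the same order of tumors, *Slc6a13* at 0.280, 1.64 and 3.58 TPM, *Slc13a4* at 1.21, 2.44 and 2.39 TPM, *Slc22a6* at 0.0468, 0.186 and 0.529 TPM and *Aldh1a2* at 3.52, 4.64 and 10.9 TPM. The rest of the list, *Dcn* (31.2, 13.2 and 33.6 TPM), *Ogn* (1.32, 0.277 and 1.58 TPM) and *Foxc1* (4.05, 2.40 and 3.98 TPM), was lowest in tumor GB359. So were *Lum* and *Igf2*. The part of fibroblast content in the collagen values was not tested.

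**Figure D3:**
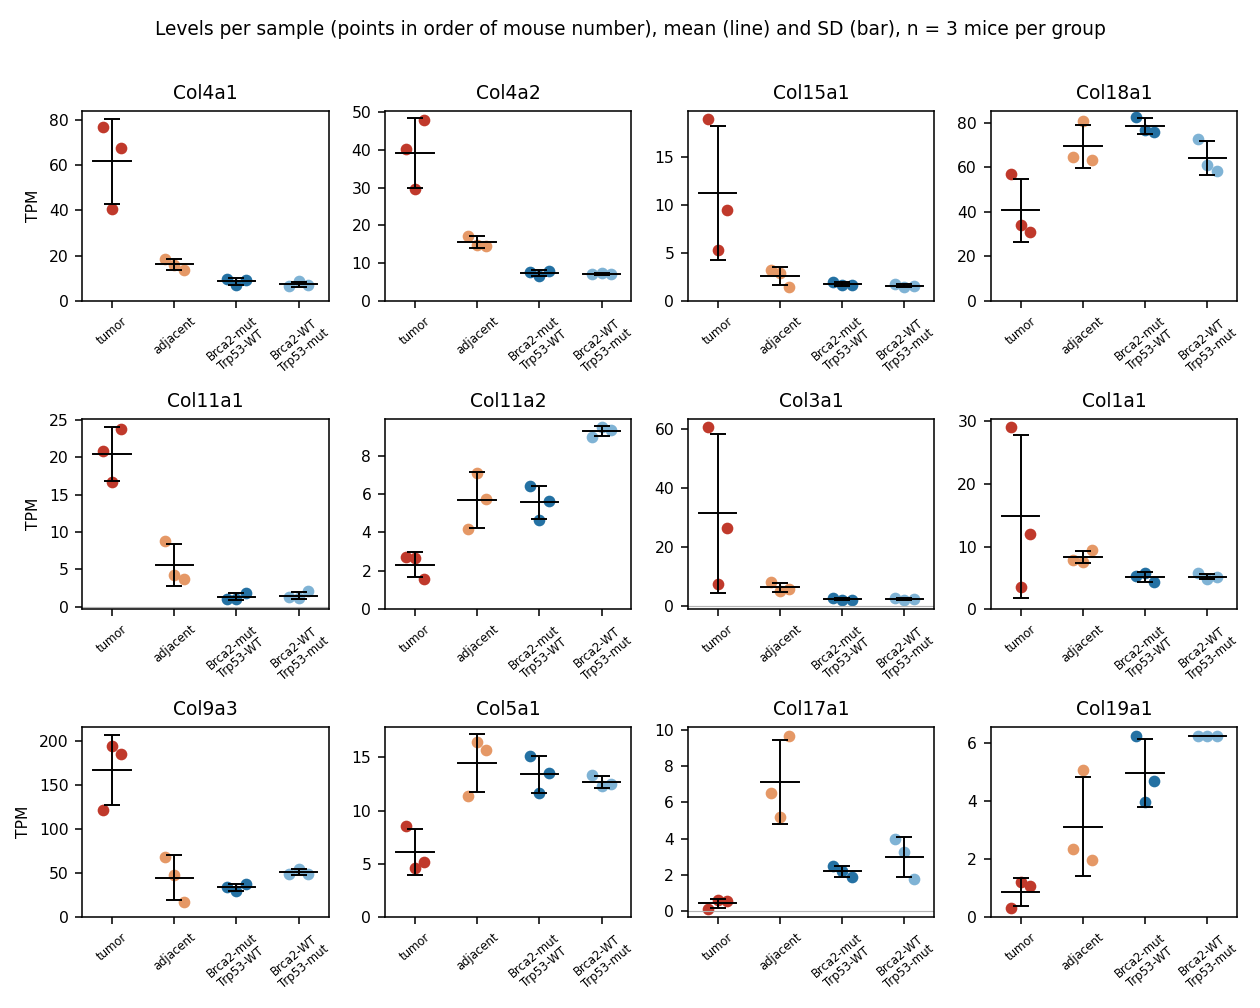
Points give TPM in each sample for 12 collagen genes in the 4 groups, with the mean (line) and SD (bar) of 3 mice, each panel on its own linear axis from 0. Tumors are above every control for *Col4a1*, *Col4a2*, *Col15a1*, *Col11a1*, *Col3a1* and *Col9a3*, and below every control for *Col18a1*, *Col11a2*, *Col5a1*, *Col17a1* and *Col19a1*.

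Of the other classes, type IX collagen, a FACIT collagen of cartilage and eye that is carried on fibrils, was the most abundant. *Col9a3* (Entrez Gene 12841, chr2:180598102-180622192) had 122, 194 and 185 TPM in tumors, 68.2, 48.2 and 17.4 TPM in adjacent cerebella and 30.2, 43.4 and 55.1 TPM as the lowest, median and highest control. Each tumor was above all other samples, and the log2 difference from controls was 1.95 (SE 0.21, limma adjusted p = 1.28e-05). *Col9a1* was called too, with 4.28, 3.68 and 1.87 TPM in the tumors and 0.482, 0.782 and 0.983 TPM in controls, a log2 difference of 1.25 (SE 0.20, limma adjusted p = 0.000245). *Col9a2* had 57.8, 31.2 and 22.0 TPM in the tumors and 15.7 to 22.0 TPM in controls and was not called (log2 difference 0.82, limma adjusted p = 0.0113). *Col28a1*, a von Willebrand domain collagen known from Schwann cells, had 4.47, 1.27 and 1.06 TPM in the tumors and 0.252, 0.368 and 1.07 TPM in controls, where the groups overlapped. It was called by a narrow margin (log2 difference 1.04, SE 0.30, limma adjusted p = 0.00974), and without tumor GB344 the difference was 0.59.

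Falls in the other classes were those of *Col19a1*, *Col8a2* and *Col17a1*. *Col19a1*, a FACIT-like collagen made by some neurons, had 0.303, 1.22 and 1.09 TPM in tumors, 2.33, 5.06 and 1.95 TPM in adjacent cerebella and 3.94, 6.24 and 6.24 TPM in controls, without overlap between tumors and controls. The log2 difference was -1.84 (SE 0.20, limma adjusted p = 1.58e-05). *Col17a1*, a transmembrane collagen of hemidesmosomes, had 0.125, 0.578 and 0.540 TPM in tumors, 6.50, 5.17 and 9.70 TPM in adjacent cerebella and 1.75, 2.35 and 3.96 TPM in controls. It was lowest in tumors and highest in adjacent tissue, with a log2 difference of -1.33 (SE 0.21, limma adjusted p = 0.000255) between tumors and controls. *Col8a2*, of endothelial and corneal lattices, had 1.52, 0.613 and 0.653 TPM in the tumors and 1.97, 4.43 and 7.31 TPM in controls (log2 difference -1.44, SE 0.36, limma adjusted p = 0.00477). With Brca2-mut;Trp53-WT cerebella alone as the control, that difference was -0.88 and not called.

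The remaining genes did not pass. Of the 22 tested genes without a call, 4 had an adjusted p under 0.01 in limma, namely *Col5a3*, *Col16a1*, *Col18a1* and *Col13a1*, and a difference under the fold minimum. *Col13a1*, a membrane collagen of the neuromuscular junction, missed the fold minimum by the smallest margin, at -0.999 (limma adjusted p = 0.000466). *Col16a1* had 11.85 to 14.8 TPM in the tumors and 7.01 to 10.7 TPM in controls. The 9 genes that were not tested, *Col4a3*, *Col4a4*, *Col6a3*, *Col6a4*, *Col6a5*, *Col6a6*, *Col10a1*, *Col22a1* and *Col24a1*, were at or below 4.36 TPM in every sample, the highest being *Col6a3* in tumor GB344.

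**Figure D4:**
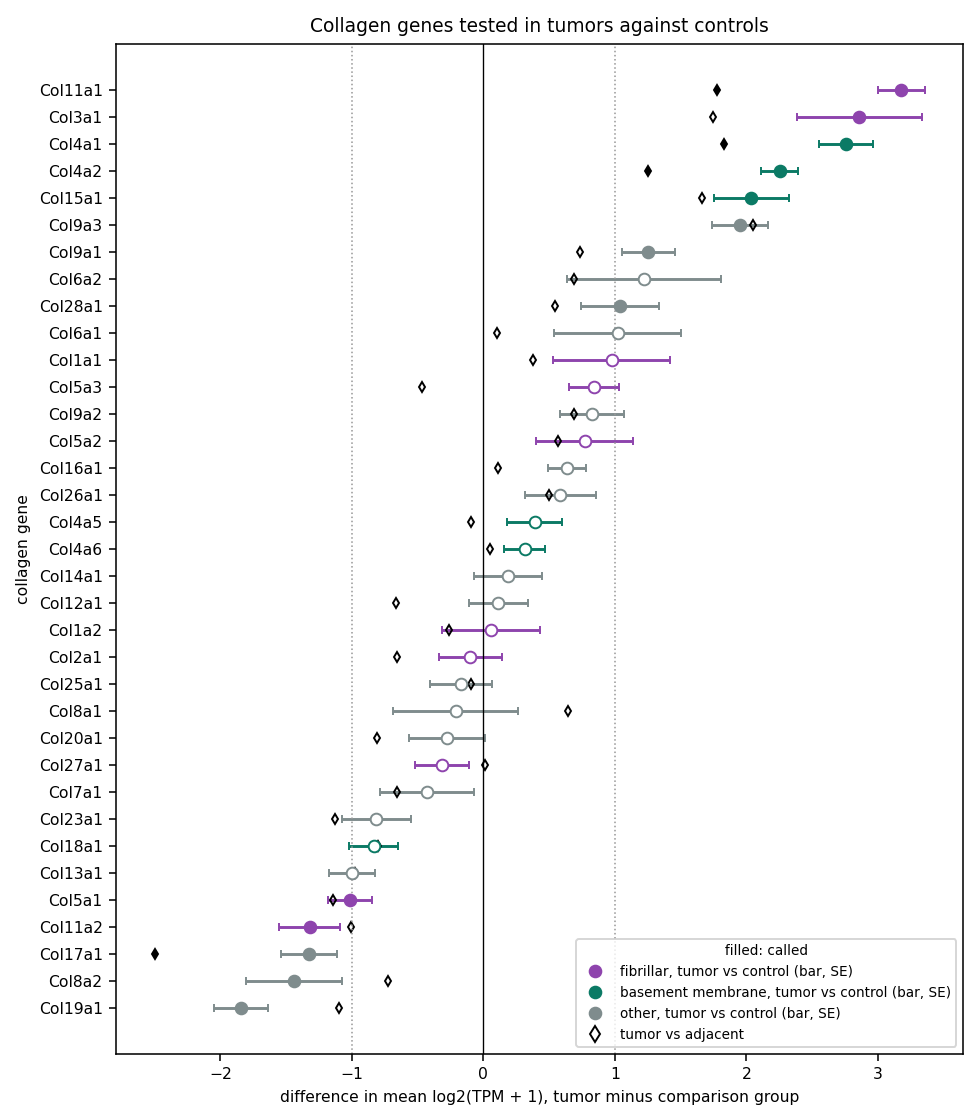
Circles give the difference in mean log2(TPM + 1) between 3 tumors and 6 controls for the 35 tested collagen genes, with the SE as bars, filled where called and colored by class, and diamonds give the difference from adjacent cerebella where that was tested. *Col11a1*, *Col4a1* and *Col4a2* are filled at the right in both comparisons, and *Col17a1* at the left in both.

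Partner chains of the same protein were then compared within samples, as the ratio of their TPM, for 8 pairs that were chosen after their values were seen. These ratios are given as a description with no test, since the differences of the single chains reported above fix much of them. Pairs with *Col9a1* or *Col5a3* were not included. The *Col11a1* to *Col11a2* ratio was 7.69, 6.24 and 15.04 in the tumors of GB344, GB359 and GB370, 2.10, 0.595 and 0.634 in adjacent cerebella, and 0.116 to 0.326 in controls. Thus *Col11a2* exceeded *Col11a1* in all controls and the order was turned in all tumors, a log2 difference of 5.60 between tumors and controls, or 4.50 with 1 TPM added to both chains. The *Col8a1* to *Col8a2* ratio was also turned, at 1.60 to 3.17 in tumors and 0.308 to 0.811 in controls, by 2.08 on the log2 scale, or 1.23 with 1 TPM added to both chains. *Col5a1* to *Col5a2* fell from 3.86 to 9.22 in controls to 0.940 to 3.04 in tumors, by a log2 difference of -2.12.

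Smaller shifts were found for the major chains. *Col4a1* to *Col4a2* was 1.38 to 1.92 in tumors, 0.950 to 1.08 in adjacent cerebella and 0.938 to 1.299 in controls, a log2 difference of 0.50. *Col1a1* to *Col1a2* was 0.439 to 0.701 in tumors and 0.241 to 0.355 in controls, a log2 difference of 1.01, and tumor GB359 had the lowest tumor value. For these 5 pairs tumors and controls did not overlap. The ratios of *Col4a5* to *Col4a6*, *Col6a1* to *Col6a2* and *Col9a3* to *Col9a2* overlapped between tumors and controls. Protein was not measured, so the ratios speak of transcripts only.

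**Figure D5:**
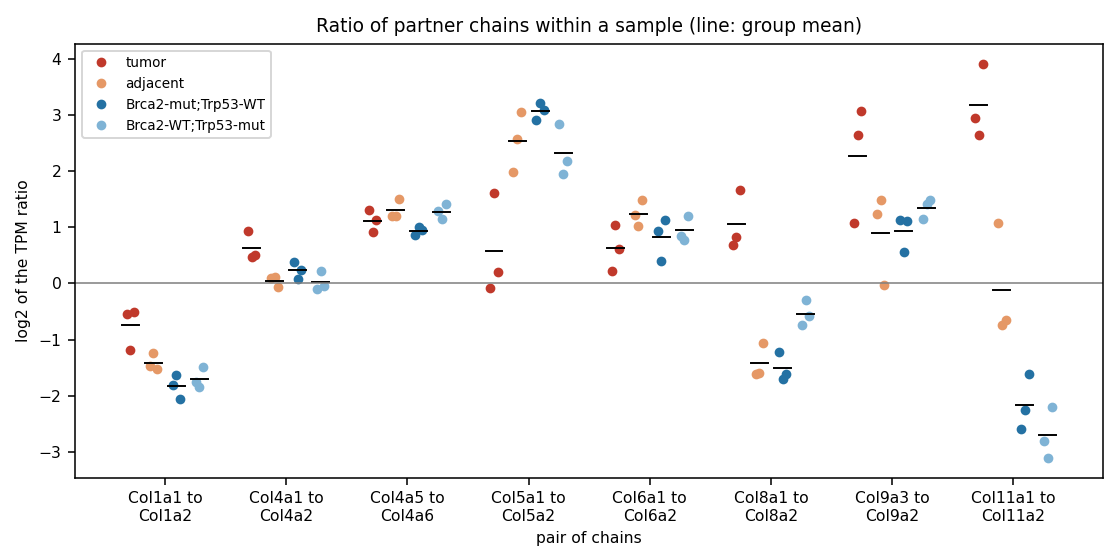
Points give the log2 of the TPM ratio of partner chains in each sample for 8 pairs, colored by group, with a line at the group mean. Tumors lie above all controls for the type I, IV alpha 1 and 2, VIII and XI pairs and below them for the type V pair.

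Genes that build and remodel collagen were described as lists. Beside their counts stand the shares over all 16241 tested genes, 14.4% called higher and 21.5% lower in tumors. Of 17 tested enzymes and chaperones of collagen modification and folding, 7 were called higher and 1 lower in tumors (median 0.60). *Ppib*, a proline isomerase, had 684, 666 and 524 TPM in tumors against 164 to 183 TPM in controls, by 1.84 on the log2 scale. *Plod2*, a lysyl hydroxylase, rose by 1.66 and *Serpinh1*, the collagen chaperone HSP47, by 1.53 on the log2 scale (limma adjusted p = 6.46e-06 and 0.00178). *P4ha2*, a prolyl hydroxylase subunit, fell by 1.70 on the log2 scale. Of 11 tested genes of propeptide removal and crosslinking, 3 were called higher and 3 lower. The procollagen N-proteinases moved apart: *Adamts14* had 26.6, 35.6 and 58.2 TPM in the tumors and 0.224 to 0.427 TPM in controls, while *Adamts3* had 0.305, 1.01 and 0.858 TPM against 12.6 to 16.8 TPM, and *Adamts2* fell by 2.13 on the log2 scale. The crosslinking enzymes *Loxl1* and *Loxl2* rose by 3.48 and 1.11.

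Receptors and matrix partners were described in the same way, beside the same shares over all genes (14.4% higher and 21.5% lower). Of 7 tested collagen receptors, *Ddr2*, a tyrosine kinase activated by fibrillar collagen, and *Itgb1*, the beta subunit of collagen-binding integrins, were called higher (log2 differences 2.79 and 1.504) and 0 lower. Among 11 tested collagen-degrading proteases and their inhibitors, 3 were called higher, *Mmp2*, *Mmp14* and *Timp1* (3.10, 2.35 and 1.49), and 3 lower, *Timp4*, *Mmp17* and *Timp3* (-3.27, -2.99 and -1.14). Among 15 tested basement membrane genes other than collagens, 5 were called higher and 1 lower, with the laminin chain *Lama5* (3.18), the collagen IV crosslinking peroxidase *Pxdn* (2.43) and *Nid2* (1.21) rising most and the laminin chain *Lamb3* falling (-1.57). *Lama5* had 17.3, 66.5 and 73.9 TPM in the tumors of GB344, GB359 and GB370 against 2.76 to 5.68 TPM in controls. It was lowest in tumor GB344, where *Col4a1* was highest, and highest in tumor GB370, as *Col4a2* was. Of 14 fibril partners and interstitial matrix genes, 4 were called higher, led by *Eln* (3.92), and *Sparc*, which encodes a collagen chaperone of the matrix, was called lower (-1.58).

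Tumors were next compared with the adjacent cerebellum of the same mice. Of 35 tested collagen genes, *Col4a1*, *Col11a1* and *Col4a2* were called higher and *Col17a1* lower, against a background over 15845 genes of 4.76% higher and 18% lower. The log2 differences were 1.83 for *Col4a1* (SE 0.25, limma adjusted p = 0.00156), 1.78 for *Col11a1* (SE 0.31, limma adjusted p = 0.00386), 1.25 for *Col4a2* (SE 0.20, limma adjusted p = 0.00277) and -2.50 for *Col17a1* (SE 0.26, limma adjusted p = 0.000507). With the mouse as a block, the same 4 genes were called. The differences could not change, since every mouse gave both samples. For *Col9a3* and *Col15a1* each tumor lay above all adjacent cerebella, but both missed the threshold (differences 2.05 and 1.66, limma adjusted p = 0.0117 and 0.0184), and *Col3a1* overlapped (1.75, limma adjusted p = 0.0657). *Col11a1* lost its call without tumor GB344 or GB370 or adjacent cerebellum GB359 or GB370, and *Col4a2* without any of the last 3 (limma adjusted p = 0.0101 to 0.0175 over these fits). The count was 2 without adjacent cerebellum GB359 or without tumor GB370, and 7 without tumor GB344.

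Adjacent cerebella were compared with the 6 controls. Adjacent cerebella carried both lesions and no control did, so the place beside a tumor and the double-mutant genotype cannot be told apart. *Col5a3*, *Col3a1* and *Col4a2* were called higher among 35 tested collagen genes and 0 lower, where 0.224% of 16091 genes were called higher and 0.0124% lower. *Col5a3* had 14.3, 14.0 and 8.89 TPM in adjacent cerebella GB344, GB359 and GB370, above every control and above the tumor of the same mouse in all 3 mice. Its log2 difference was 1.31 (SE 0.17, limma adjusted p = 0.00883), that of *Col3a1* 1.11 (SE 0.16, limma adjusted p = 0.00883) and that of *Col4a2* 1.001 (SE 0.10, limma adjusted p = 0.00537). *Col11a1*, *Col17a1* and *Col4a1* lay above all controls in each adjacent cerebellum without a call (1.40, 1.17 and 0.93, limma adjusted p = 0.0129, 0.0164 and 0.0112). These calls rested on single samples and on the pooling of controls. No collagen gene was called without adjacent cerebellum GB344, against either control genotype alone, or without control GB361, GB508, GB517, GB519 or GB520. The count was 1 without adjacent cerebellum GB359 or control GB512, and 5 without adjacent cerebellum GB370.

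Adjacent cerebella GB344 and GB359 also held *Atoh1*, a marker of granule progenitors, at 59.4 and 50.5 TPM, GB370 at 4.997 TPM and controls at no more than 0.212 TPM. *Col11a1* was highest in adjacent cerebellum GB344 at 8.74 TPM, while *Col17a1*, nearly silent in tumors, was highest in GB370 at 9.70 TPM. The part of tumor cells in the adjacent values was not tested.

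The control genotypes were compared with each other to see whether they differed in collagen genes. The samples held no cerebellum free of both lesions. An effect shared by both lesions would therefore not show, and a difference cannot be assigned to either lesion. By limma, 0 of 32 tested collagen genes were called, and 9 (28.1%) had an unadjusted p under 0.05, where 3123 of all 15575 genes (20.1%) did. Between tumors and controls, 54.3% of tested collagen genes and 73.5% of all genes had such a p. The shares were 45.7% and 57.1% between tumors and adjacent cerebella, and 51.4% and 34.5% between adjacent cerebella and controls. Over all genes, 0.0128% were called higher and 0.0449% lower in Brca2-mut;Trp53-WT cerebella. The largest difference was that of *Col8a1*, with 1.51, 0.657 and 0.648 TPM in Brca2-mut;Trp53-WT cerebella GB361, GB508 and GB512 and 4.39, 5.86 and 3.59 TPM in Brca2-WT;Trp53-mut cerebella (log2 difference -1.54, SE 0.23, limma adjusted p = 0.0472). *Col8a2* had 3.51, 2.14 and 1.97 TPM against 7.31, 7.22 and 5.35 TPM (-1.12, limma adjusted p = 0.0647). Neither pair of groups overlapped. All 8 choroid plexus markers were lower in every Brca2-mut;Trp53-WT cerebellum as well, *Ttr* at 842, 9.60 and 11.76 TPM against 3957, 5039 and 3849 TPM. Of these markers 0 were called. Of the 44 collagen genes, 11 were also lower without overlap and 2 were higher without overlap. The share of all genes that separated in this way was not counted, so these counts cannot be read as particular to collagen genes. The part of choroid plexus in the type VIII difference was not tested. *Col4a1*, *Col4a2*, *Col11a1* and *Col3a1* differed by 0.21, 0.02, -0.11 and -0.02 between the genotypes, and their values overlapped.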

How the data were processed

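RNA sequencing of 12 mouse samples was analyzed. Per the study's methods, poly(A) libraries were read at 75 bp, and transcript abundance was estimated by the authors with Salmon 0.8.1 (mm10 knownGene) and collapsed by gene with tximport. The deposited table gives TPM of 24091 genes, summing to 999793 to 999876 per sample. Depth per sample is unknown, so precision is that of the spread between mice, and no counting interval is given. Columns left unused numbered 0.

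TPM were transformed to log2(TPM + 1), which understates changes of low genes. A gene entered a comparison if 3 or more of its samples reached 1 TPM. Tests used limma 3.58.1 (eBayes with trend) under R 4.3.3, and p-values were adjusted by Benjamini-Hochberg across every gene that entered. Each fit used the groups compared. The study tested counts instead, which were not used here, and its thresholds were kept (adjusted p under 0.01, absolute log2 difference of at least 1). The model was checked on simulated data with 200 of the more highly expressed genes changed by 2 on the log2 scale. It recovered 98% of them for tumor against control and 79% for tumor against adjacent, with 0 false calls in each. Simulated tumors had the spread of the comparison group, so genes that spread more between the real tumors were not checked. Chain ratios were described without a test.

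Members, classes and gene lists were chosen with earlier results of these data known, and the 8 chain pairs after the values were seen. Named members were those called in any comparison, their partner chains and the leading gene of each class. List genes named were called ones with the 3 largest changes in a direction, and marker genes were given by values. *Col1a1*, *Col1a2*, *Col4a3* to *Col4a6*, *Col6a1* to *Col6a3*, *Col13a1* and *Col16a1* were added after their values were seen. Positions are those of RefSeq GRCm38.p6. The pairing of tumor and adjacent samples comes from the mouse numbers in the labels. After group means were removed, same-mouse correlations were 0.249, 0.176 and 0.152, and others ran from -0.163 to 0.0180. *Col4a1* and *Col4a2* overlap at their starts, where transcript reads cannot be divided with certainty. Alternatives changed pseudocount, filter, scaling, moderation, pooling, control group, pairing, thresholds and samples, 1 at a time.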

Additional observations from a re-analysis of the deposited data

Results flagged for a closer look

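Of 43 measures tested for a sample far from the others in the 6 control cerebella (35 collagen genes and 8 chain ratios), 1 was flagged. *Col28a1* had 1.07 TPM in Brca2-mut;Trp53-WT cerebellum GB512 against 0.252 to 0.423 TPM in the other 5 controls. The gap took 0.790 of the range, above Dixon's critical value of 0.625 for 6 samples. Chance flags about 1 in 20 such groups. This is the sample whose value overlapped the tumors for *Col28a1*, and *Mki67* was at 5.63 TPM in it against at most 0.343 TPM in the other controls.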

How the results depend on the processing

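No collagen call changed direction under any alternative. Tumor against control gave 10 to 19 called collagen genes under the alternatives, against 13. *Col28a1* lost its call under 11 alternatives, *Col5a1* under 6, *Col8a2* under 4 and *Col11a2* under 1, and the other 9 kept theirs wherever they were tested. Single samples decided some of these: *Col5a1* was lost without tumor GB359 or GB370 or control GB361, *Col8a2* without tumor GB359 or GB370 or control GB520, and *Col28a1* without tumor GB344 or GB359 or any control but GB512. Scaling moved the median of all genes in this comparison from -0.11 to 0.04 under quantile normalization, with 9 collagen genes called higher and 4 lower.

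Tumor against adjacent gave 4 calls, 10 with all 4 groups in 1 fit, 14 at an adjusted p under 0.05 with no fold minimum, and 2 to 7 when 1 sample at a time was dropped. With the mouse number as a replicate block it gave 4. Median-of-ratios scaling gave 5 and quantile normalization 6 calls.

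Adjacent against control gave 3 calls, 1 with no expression filter, with quantile normalization, without the eBayes trend or with all 4 groups in 1 fit, 12 at an adjusted p under 0.05, 0 with either control genotype alone, and 0 to 5 with each sample left out. Between control genotypes, 1 gene, *Col8a1*, passed an adjusted p under 0.05. The causes were not tested.

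Chain ratios were recomputed with 1 TPM added to both chains and with each sample left out, alternatives chosen after seeing the data. For the 5 pairs whose tumors and controls did not overlap, leaving out a sample could not turn the direction of the difference, so those fits say nothing of it. With 1 TPM added to both chains, these 5 pairs kept their direction. For the type XI and type VIII pairs this was fixed beforehand, since their ratios were above 1 in all tumors and below 1 in all controls. For the type I, IV and V pairs it could have turned. Adding 1 TPM moved the type XI difference to 4.50 and the type VIII difference to 1.23. Without a count of reads, sampling error in the genes near 1 TPM cannot be given.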
